A study of Mus musculus with 36 samples.

Results

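Rgs16, Mfsd2a, Arrdc3 and Chka are 4 mouse genes whose liver transcripts were described across the day on a normal chow and on a high fat diet. They were picked from these same arrays for a large daily amplitude or a large difference between the diets at 1 time, with no numeric threshold given. Each was measured by 1 probe set whose platform annotation names that gene alone, out of 19938 genes with such a probe set, and all 4 were among the 13956 genes that passed a filter on dim probe sets. Because the daily profiles and the diet differences chose the genes, those values are given as a description without a test. The Rgs16 probe set passed the filter on its mean over all samples, but its group means on chow at ZT0, ZT4, ZT16 and ZT20 lay below the filter level of 6.11 on the log2 scale.

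The arrays were made from livers of C57BL/6J mice, 16 weeks old, that had eaten either normal chow or a diet with 60% of its energy from fat for 10 weeks. All mice were fed ad libitum under 12 h of light and 12 h of dark, and livers were taken every 4 h at 6 zeitgeber times (ZT, hours on the light schedule). The 2 diets and 6 times made 12 groups of 3 samples, 36 in all, with 1 array per sample. The sex of the mice, and whether a sample was 1 animal or a pool, were not given in the sources used here, so the spread between samples may be partly technical. The comparison addressed how a fat-rich diet changes the daily course of liver transcripts.

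The 4 genes act in different pathways. Rgs16 encodes a regulator of G protein signalling, a protein that speeds GTP hydrolysis by G protein alpha subunits and so shortens the signal from G protein-coupled receptors. In liver it is known as a carbohydrate-responsive gene. Mfsd2a encodes a membrane transporter that carries lysophosphatidylcholine into cells together with sodium, and its liver transcript is known to rise on fasting. Arrdc3 encodes an alpha-arrestin, an adaptor that links membrane proteins, beta-adrenergic receptors among them, to ubiquitin ligases of the NEDD4 family. Chka encodes choline kinase alpha, which phosphorylates choline in the first step of phosphatidylcholine synthesis by the CDP-choline route. Many liver transcripts follow the time of day, driven by the circadian clock, by feeding or by both.

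The promoter windows of the 4 genes are shown because their transcripts peaked at different times and answered the diet differently. All 4 symbols were matched in RefSeq's table for GRCm38.p6, which gives 250 bases before and 50 after a transcription start. Capitals mark matches, on either strand, to 5 motifs that were searched: the canonical E-box CACGTG bound by clock factors, the D-box TTANGTAA bound by PAR bZIP factors, the nuclear receptor site AGGTCA, the core TGACG of the cAMP response element, and the CCAAT box. The windows are chr1:153740103-153740402 on the plus strand for Rgs16, chr4:122961139-122961438 on the minus strand for Mfsd2a, chr13:80883134-80883433 on the plus strand for Arrdc3 (the first of 3 windows listed for that gene) and chr19:3851523-3851822 on the plus strand for Chka.
Rgs16: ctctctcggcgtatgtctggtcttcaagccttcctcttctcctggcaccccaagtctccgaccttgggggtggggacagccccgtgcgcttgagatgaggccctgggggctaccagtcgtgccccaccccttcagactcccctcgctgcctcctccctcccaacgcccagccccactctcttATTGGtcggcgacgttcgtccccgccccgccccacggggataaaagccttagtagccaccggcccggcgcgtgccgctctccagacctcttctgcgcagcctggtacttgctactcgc
Mfsd2a: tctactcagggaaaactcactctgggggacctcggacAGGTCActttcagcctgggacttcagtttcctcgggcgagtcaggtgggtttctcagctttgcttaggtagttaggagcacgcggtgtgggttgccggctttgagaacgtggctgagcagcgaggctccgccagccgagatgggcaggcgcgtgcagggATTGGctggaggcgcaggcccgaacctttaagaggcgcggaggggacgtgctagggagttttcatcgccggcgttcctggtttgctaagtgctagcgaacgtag
Arrdc3: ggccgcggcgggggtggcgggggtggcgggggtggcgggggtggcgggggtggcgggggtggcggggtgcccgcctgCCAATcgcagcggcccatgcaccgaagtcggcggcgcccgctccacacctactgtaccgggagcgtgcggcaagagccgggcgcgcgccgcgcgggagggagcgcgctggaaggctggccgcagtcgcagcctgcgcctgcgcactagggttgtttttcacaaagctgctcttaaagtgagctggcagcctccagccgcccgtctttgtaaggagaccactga
Chka: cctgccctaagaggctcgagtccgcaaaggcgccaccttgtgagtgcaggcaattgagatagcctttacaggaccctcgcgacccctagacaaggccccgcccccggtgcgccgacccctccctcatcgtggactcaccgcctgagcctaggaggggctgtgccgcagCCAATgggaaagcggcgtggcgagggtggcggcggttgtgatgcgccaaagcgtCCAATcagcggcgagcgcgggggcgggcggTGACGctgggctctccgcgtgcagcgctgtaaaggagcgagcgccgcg

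Every one of the 4 windows held the CCAAT letters, which 37.9% of 27025 promoter windows of that length also held. In Rgs16 the match began at base -68 on the opposite strand, in Mfsd2a at -54 on the opposite strand, in Arrdc3 at -173, and in Chka at -82 and again at -28, counted from the transcription start at +1. RefSeq's gene record for Chka begins at base 3851585 of chromosome 19, upstream of the start used for its window, so both CCAAT matches in Chka lie inside the annotated gene. Mfsd2a alone among the 4 held AGGTCA, at -213, a motif found in 16% of all windows. Chka alone held TGACG, at +3, found in 21% of all windows. None of the 4 windows held CACGTG, present in 7.24% of windows, or TTANGTAA, present in 2.34%. G and C made up 66% of the Rgs16 window, 60.3% of that of Mfsd2a, 73% of that of Arrdc3 and 68.7% of that of Chka.

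Median probe set intensity lay between 75.7 and 95.6 on the 36 arrays, and samples of a group correlated with each other at 0.98 to 0.995 over all tested genes. Intensities are linear array values, and differences are given on the scale of log2(intensity + 16), which understates the change of a dim gene. The 4 arrays with the lowest array weights, 0.265 to 0.409, are called the noisier arrays here. They were chow ZT4 sample 2, chow ZT20 sample 3, high fat diet ZT20 sample 2 and chow ZT16 sample 1. The number 4 followed no cutoff, and the next weight was 0.521. Averaged over the day, 2937 of the 13956 genes (21%) differed between the diets by limma at an adjusted p under 0.05. A daily rhythm was called for 20.6% of genes on chow and for 11% on the high fat diet, and a difference in rhythm between the diets for 4 genes (0.0287%). The samples were pieces of whole liver, in which a change in the number of cells of a type and a change in RNA per cell cannot be told apart.

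Rgs16 was dim in chow liver through much of the night and at the start of the light phase, and bright in the second part of the light phase. On chow its intensity in the 3 samples was 8.78, 14.5 and 14.6 at ZT0 and 7.91, 20.3 and 254 at ZT4. It then reached 212, 367 and 480 at ZT8 and stayed at 180, 244 and 448 at ZT12. At ZT16 it was down to 19.4, 23.6 and 83.3, and at ZT20 to 13.7, 15.4 and 57.4. The 6 samples of ZT8 and ZT12 thus stood above every other chow sample except the brightest of ZT4.

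On the high fat diet Rgs16 was already bright at ZT4. The intensities were 52.2, 311 and 322 at ZT0 and 559, 636 and 1954 at ZT4. They were 607, 677 and 892 at ZT8 and 500, 721 and 1543 at ZT12. At ZT16 they fell to 150, 238 and 246, and at ZT20 to 40.7, 172 and 193. All 3 high fat diet samples lay above all 3 chow samples at 5 of 6 times, and only at ZT20 did the diets overlap, through the dimmest high fat diet sample at 40.7 and the brightest chow sample at 57.4. At a single time, between 7.08% (ZT8) and 14.9% (ZT0) of all tested genes showed 3 high fat diet samples above 3 chow samples.

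The diet difference of Rgs16 was 2.78 at ZT0, 3.87 at ZT4, 1.06 at ZT8, 1.55 at ZT12, 2.10 at ZT16 and 1.67 at ZT20 on the log2 scale, each with an SE of 0.675 (n = 3 per group). At ZT8 and ZT12, when Rgs16 was brightest on chow, these are ratios of 2.08 and 2.93. At ZT0 and ZT4 most chow values lie below or near the offset of 16, so that the offset sets much of the difference and no ratio is given: the ZT0 value was 3.72 with an offset of 1 and 1.74 with an offset of 64, and the ZT4 value was 2.95 with an offset of 64. Averaged over the day it was 2.17 (SE 0.28), against a median of 0.0167 over all tested genes. The ZT4 value depended on chow sample 3 at 254, without which the difference was 4.94, and on chow sample 2 at 7.91, a noisier array, without which it was 3.19.

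A 24 h cosine fitted to Rgs16 had an amplitude (from the mean to the crest) of 1.86 (SE 0.31) on chow and 1.52 (SE 0.31) on the high fat diet on the log2 scale, rank 5 and rank 6 of 13956 genes. The median gene had an amplitude of 0.0928 on chow and 0.0773 on the high fat diet. The fitted crest of Rgs16 was at ZT 9.91 h (SE 0.64) on chow and at ZT 8.06 h (SE 0.79) on the high fat diet. The chow amplitude, whose trough lies near the offset, ran from 1.24 to 2.35 over the other settings. On the high fat diet the ratio of the highest to the lowest group mean was 6.93 (ZT4 to ZT20). Rgs16 was also among the genes that varied most between samples of the same group, with a residual SD of 0.918, rank 5 of 13956, against a median of 0.139. When the 12 groups were ordered by mean level, only 1 of the 11 neighbouring pairs did not overlap, high fat diet ZT8 over chow ZT8.

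**Figure D1:**
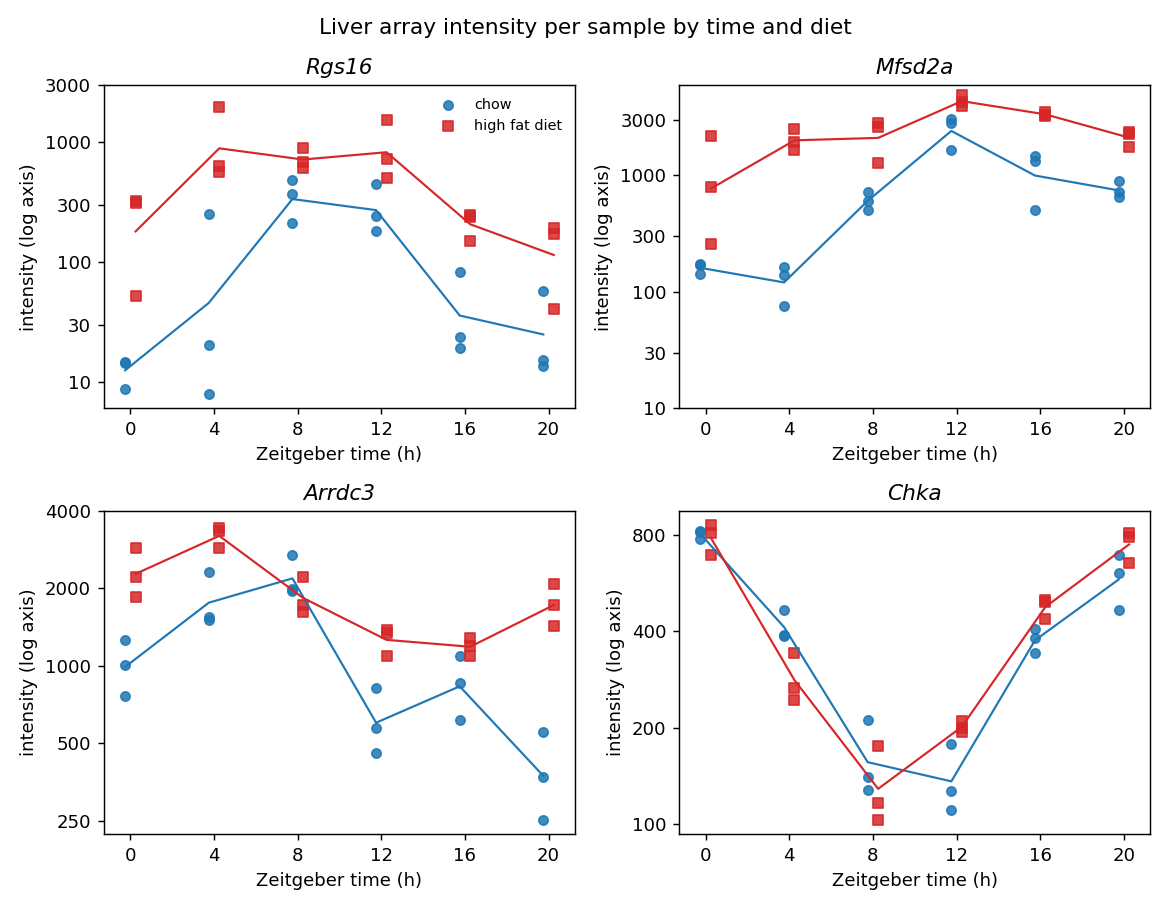
Array intensity (log axis) of the 4 genes in each of the 36 liver samples against zeitgeber time in hours; circles are chow, squares are high fat diet, points are samples, shifted slightly sideways by diet, and lines join the group means taken on the log2(intensity + 16) scale. Rgs16 and Mfsd2a show the widest gap between the diets at ZT4, Arrdc3 at ZT20, and the 2 curves of Chka cross between ZT8 and ZT12.

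Mfsd2a had its trough at the start of the light phase and its crest at the onset of dark. On chow its intensity was 142, 170 and 172 at ZT0 and 75.4, 139 and 163 at ZT4. It rose to 508, 597 and 720 at ZT8 and to 1633, 2793 and 3009 at ZT12. It then went down to 505, 1315 and 1467 at ZT16 and to 644, 711 and 887 at ZT20. Every chow sample of ZT12 was brighter than every other chow sample, and the 6 samples of ZT0 and ZT4 were the dimmest.

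On the high fat diet the trough of Mfsd2a at ZT4 was missing. The intensities were 259, 789 and 2155 at ZT0 and 1658, 1921 and 2474 at ZT4. They were 1262, 2590 and 2785 at ZT8 and 3889, 4278 and 4824 at ZT12. At ZT16 they were 3189, 3284 and 3503 and at ZT20 1751, 2271 and 2325. The diets did not overlap at any of the 6 times (at ZT4, 11.6% of all tested genes were above in this way), although the 3 high fat diet samples of ZT0 stood far apart from each other.

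The diet difference of Mfsd2a was 2.15 at ZT0, 3.88 at ZT4, 1.77 at ZT8, 0.85 at ZT12, 1.73 at ZT16 and 1.48 at ZT20 on the log2 scale, each with an SE of 0.43 (n = 3 per group). At ZT4 this was a ratio of 14.7 and at ZT12, the crest on both diets, a ratio of 1.8. The average over the day was 1.98 (SE 0.176). The ZT0 value moved with single samples, to 1.42 without high fat diet sample 1 (intensity 2155) and to 2.90 without high fat diet sample 3 (intensity 259). The same high fat diet sample 3 of ZT0 was also the dimmest of its group for Rgs16, at 52.2.

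The fitted amplitude of Mfsd2a was 1.92 (SE 0.23) on chow, rank 4 of 13956, and 0.97 (SE 0.23) on the high fat diet, rank 23. Its crest was at ZT 13.9 h (SE 0.45) on chow and at ZT 12.85 h (SE 0.9) on the high fat diet. The ratio of the highest to the lowest group mean was 17.7 on chow (ZT12 to ZT4) and 5.53 on the high fat diet (ZT12 to ZT0). Mfsd2a was the member whose groups were most clearly separated in order, with 4 of 11 neighbouring pairs free of overlap. These were high fat diet ZT12 over high fat diet ZT16, that group over chow ZT12, high fat diet ZT4 over chow ZT16, and chow ZT8 over chow ZT0. Its residual SD was 0.583.

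**Figure D2:**
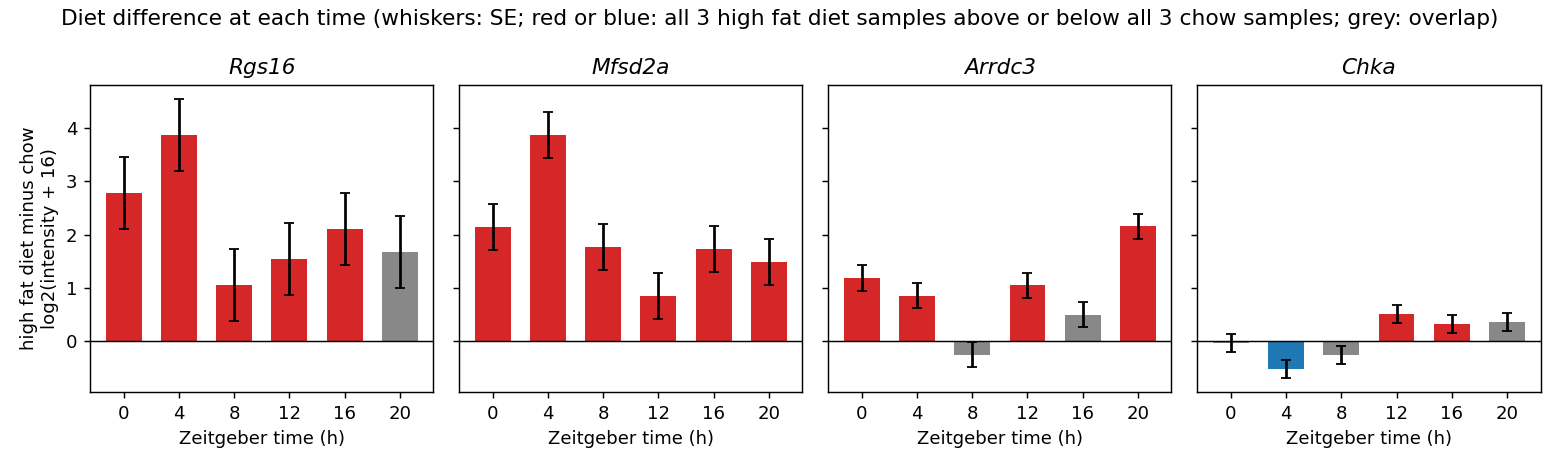
High fat diet minus chow on the log2(intensity + 16) scale at each zeitgeber time in hours, 1 panel per gene; whiskers are the SE of the fit. Red bars mark times when all 3 high fat diet samples lay above all 3 chow samples, blue the reverse and grey an overlap; Mfsd2a is red at 6 of 6 times, and Chka is blue at ZT4 and red at ZT12 and ZT16.

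Arrdc3 was highest in the light phase. On chow its intensity was 766, 1004 and 1260 at ZT0, 1504, 1553 and 2321 at ZT4 and 1953, 1979 and 2692 at ZT8. It dropped to 460, 575 and 818 at ZT12, stood at 616, 855 and 1093 at ZT16 and was lowest at ZT20, with 253, 372 and 551. The drop from ZT8 to ZT12 separated all samples of the 2 times.

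On the high fat diet Arrdc3 was at 1856, 2217 and 2857 at ZT0 and at its highest, 2856, 3323 and 3430, at ZT4. It was then 1622, 1724 and 2208 at ZT8, 1087, 1342 and 1372 at ZT12 and 1088, 1195 and 1281 at ZT16. By ZT20 it was back at 1423, 1722 and 2076, where chow had its trough. All high fat diet samples lay above all chow samples at ZT0 (as for 14.9% of all tested genes), ZT4 (11.6%), ZT12 (11.7%) and ZT20 (8.99%). The diets overlapped at ZT8 and ZT16.

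The diet difference of Arrdc3 was 1.19 at ZT0, 0.86 at ZT4, -0.25 at ZT8, 1.05 at ZT12, 0.50 at ZT16 and 2.16 at ZT20 on the log2 scale, each with an SE of 0.239 (n = 3 per group). The ZT20 value is a ratio of 4.46, and at ZT8 the mean was lower on the high fat diet by less than the spread between samples. At ZT20, 8.99% of all tested genes had 3 high fat diet samples above 3 chow samples. Leaving out chow ZT16 sample 2 moved the ZT16 value to 0.29. The ZT8 value moved to -0.10 without chow ZT8 sample 1 and to -0.38 without high fat diet ZT8 sample 2. The average over the day was 0.92 (SE 0.098). Without the 4 noisier arrays, of which 2 belong to ZT20, the ZT20 difference was 1.75.

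The fitted amplitude of Arrdc3 was 1.03 (SE 0.15) on chow, rank 20, and 0.67 (SE 0.15) on the high fat diet, rank 70. Its crest was at ZT 6.01 h (SE 0.56) on chow and at ZT 2.73 h (SE 0.87) on the high fat diet. From the lowest to the highest group mean the ratio was 5.65 on chow (ZT20 to ZT8) and 2.67 on the high fat diet (ZT16 to ZT4). In the order of its 12 group means, only high fat diet ZT20 over high fat diet ZT12 did not overlap.

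Chka had fitted amplitudes on the 2 diets that differed by less than their SE, and a mean level over the day that differed by less than its SE. On chow its intensity was 776, 812 and 822 at ZT0, 387, 390 and 464 at ZT4 and 128, 141 and 211 at ZT8. It was 111, 127 and 178 at ZT12, 341, 380 and 405 at ZT16 and 464, 606 and 690 at ZT20. On the high fat diet it was 691, 809 and 854 at ZT0, 245, 266 and 342 at ZT4 and 104, 117 and 176 at ZT8. It had risen again by ZT12 to 194, 200 and 210, and reached 435, 495 and 500 at ZT16 and 653, 784 and 809 at ZT20. The lowest group was thus ZT12 on chow and ZT8 on the high fat diet, and the highest was ZT0 on both.

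All 3 high fat diet samples of Chka lay below all 3 chow samples at ZT4, as for 9.95% of tested genes, and above them at ZT12 (11.7% of genes) and ZT16 (9.64%). The difference was -0.04 at ZT0, -0.52 at ZT4, -0.25 at ZT8, 0.51 at ZT12, 0.33 at ZT16 and 0.36 at ZT20 on the log2 scale, each with an SE of 0.169 (n = 3 per group). Leaving out chow ZT8 sample 2 moved the ZT8 value to -0.05, leaving out high fat diet ZT8 sample 3 moved it to -0.45, and leaving out chow ZT20 sample 2 moved the ZT20 value to 0.20. The ZT0 value had no settled sign: it was 0.05 without high fat diet ZT0 sample 1 and -0.10 without high fat diet ZT0 sample 3. The average over the day was 0.065 (SE 0.069), and 0.031 to 0.098 with 1 sample left out. The fitted amplitude was 1.23 (SE 0.087) on chow, rank 14, and 1.28 (SE 0.087) on the high fat diet, rank 9. The crest was at ZT 22.47 h (SE 0.27) on chow and at ZT 21.01 h (SE 0.26) on the high fat diet. The ratio of the highest to the lowest group mean was 5.39 on chow and 5.5 on the high fat diet. Chka was the member with the smallest residual SD, 0.222.

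**Figure D3:**
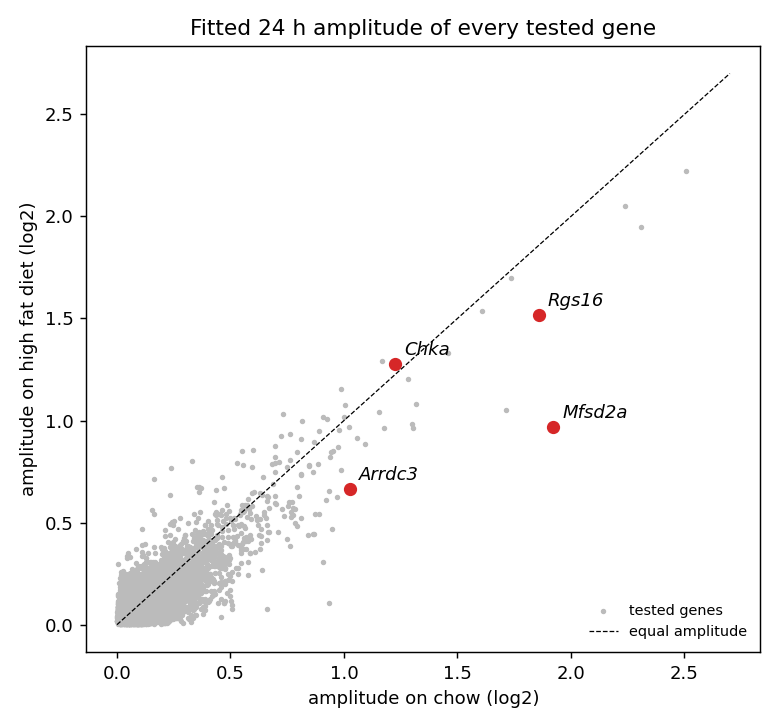
Amplitude of a fitted 24 h cosine on the high fat diet against that on chow, both on the log2 scale, for each of the 13956 tested genes (grey points), with the 4 described genes in red and the line of equal amplitude dashed. Rgs16, Mfsd2a and Arrdc3 lie below the line and Chka just above it; 99% of genes had an amplitude under 0.559 on chow and under 0.518 on the high fat diet.

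Across the 12 group means, which the choice of the genes used, Rgs16 and Mfsd2a had a Pearson r of 0.702, Rgs16 and Arrdc3 of 0.541, and Rgs16 and Chka of -0.684. Mfsd2a and Arrdc3 (0.011) and Arrdc3 and Chka (-0.09) had profiles with almost no common course. Mfsd2a and Chka stood at -0.4. These are descriptions over 12 points that share the arrays.

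How the genes varied between samples of the same diet and time was not used to choose them, and was tested by permuting samples within groups (100000 permutations, 2-sided, adjusted over the 6 pairs by Benjamini-Hochberg). In livers where Rgs16 was above its group mean, Arrdc3 tended to be above its own, with a Pearson r of 0.596 over 36 samples (permutation p = 0.00136, adjusted p = 0.00816) and a Spearman rho of 0.641 (permutation p = 0.00066, adjusted p = 0.00396). Without the 2 samples farthest from the median of Rgs16 r was 0.535. Without the 4 noisier arrays r was 0.536 with an adjusted p of 0.0501 by the same permutation test, so the call then no longer held. Among all 13955 other tested genes, Arrdc3 was number 306 in its within-group r with Rgs16, and Rgs16 was number 31 for Arrdc3.

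Rgs16 and Mfsd2a had a within-group r of 0.466 (permutation p = 0.0553, adjusted p = 0.166; rho 0.427, adjusted p = 0.127), which fell to 0.329 without the 2 farthest samples and did not pass. The other 4 pairs had r between -0.199 (Mfsd2a and Chka) and 0.106 (Rgs16 and Chka), with adjusted permutation p-values for r of 0.58 to 0.886. All genes of a sample share its array, so anything that moves a whole array moves with these values.

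**Figure D4:**
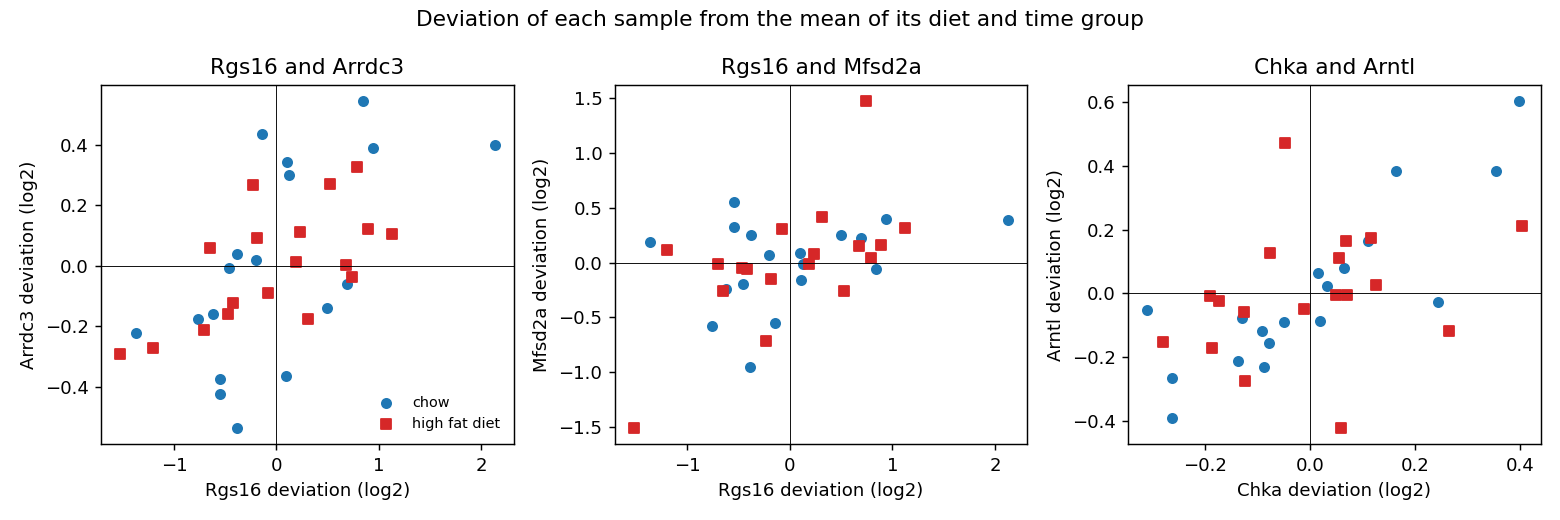
Deviation of each of the 36 samples from the mean of its diet and time group, on the log2(intensity + 16) scale, for Rgs16 against Arrdc3, Rgs16 against Mfsd2a and Chka against Arntl; circles are chow and squares high fat diet. Pearson r was 0.596, 0.466 and 0.615; in the middle panel the highest and the lowest Mfsd2a points are both high fat diet ZT0 samples.

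The 5 genes nearest to each member in their 12 group means were then listed, with r as a description. Since they were picked for sharing a member's profile, their diet differences, rhythms and crest times follow from that choice and are given without a test. For Rgs16 these were 1810058I24Rik (0.966), Ppara (0.96), Stau2 (0.96), Cpt1a (0.938) and Rabgap1l (0.937). Ppara encodes the fatty acid-sensing nuclear receptor of fasting liver, and Cpt1a the enzyme that admits long-chain fatty acids to mitochondrial oxidation. Their means over the day were higher on the high fat diet by 0.46 (SE 0.049) for Ppara and 0.46 (SE 0.034) for Cpt1a on the log2 scale, and their fitted crests on chow were at ZT 9.99 h and 10.1 h. Their swings were far smaller than that of Rgs16, with chow amplitudes of 0.38 and 0.37.

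For Mfsd2a the nearest were Ivns1abp (0.944), Bnip2 (0.935), Dnajc19 (0.933), Steap4 (0.933) and Pgm1 (0.923) with means over the day 0.12 to 0.29 higher on the high fat diet. Steap4, a metalloreductase of the cell membrane, had the widest chow rhythm of these, with an amplitude of 0.45 and a crest at ZT 13.3 h. For Arrdc3 they were Map3k20 (0.948), Ammecr1 (0.947), Fam171b (0.931), Cdc16 (0.931) and Map2k1 (0.924). The mean over the day of Map3k20, a stress-activated kinase, was 0.24 (SE 0.05) higher on the high fat diet and that of Fam171b 0.27 (SE 0.08).

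For Chka the nearest gene was Arntl (0.985), the core clock activator BMAL1, followed by Rfxank (0.98), Clock (0.976), Clpx (0.974) and Blcap (0.969). Clock encodes the DNA-binding partner of BMAL1, and Clpx the mitochondrial protease subunit that unfolds its substrates. Their fitted crests, like that of Chka, were earlier on the high fat diet: Arntl at 20.4 h against 22.1 h on chow, Rfxank at 20.8 h against 22.6 h, Clock at 21 h against 22.9 h, Clpx at 21.2 h against 22.8 h and Blcap at 21.4 h against 22.6 h. At ZT4 the diet difference of Arntl was -0.89 (SE 0.204).

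**Figure D5:**
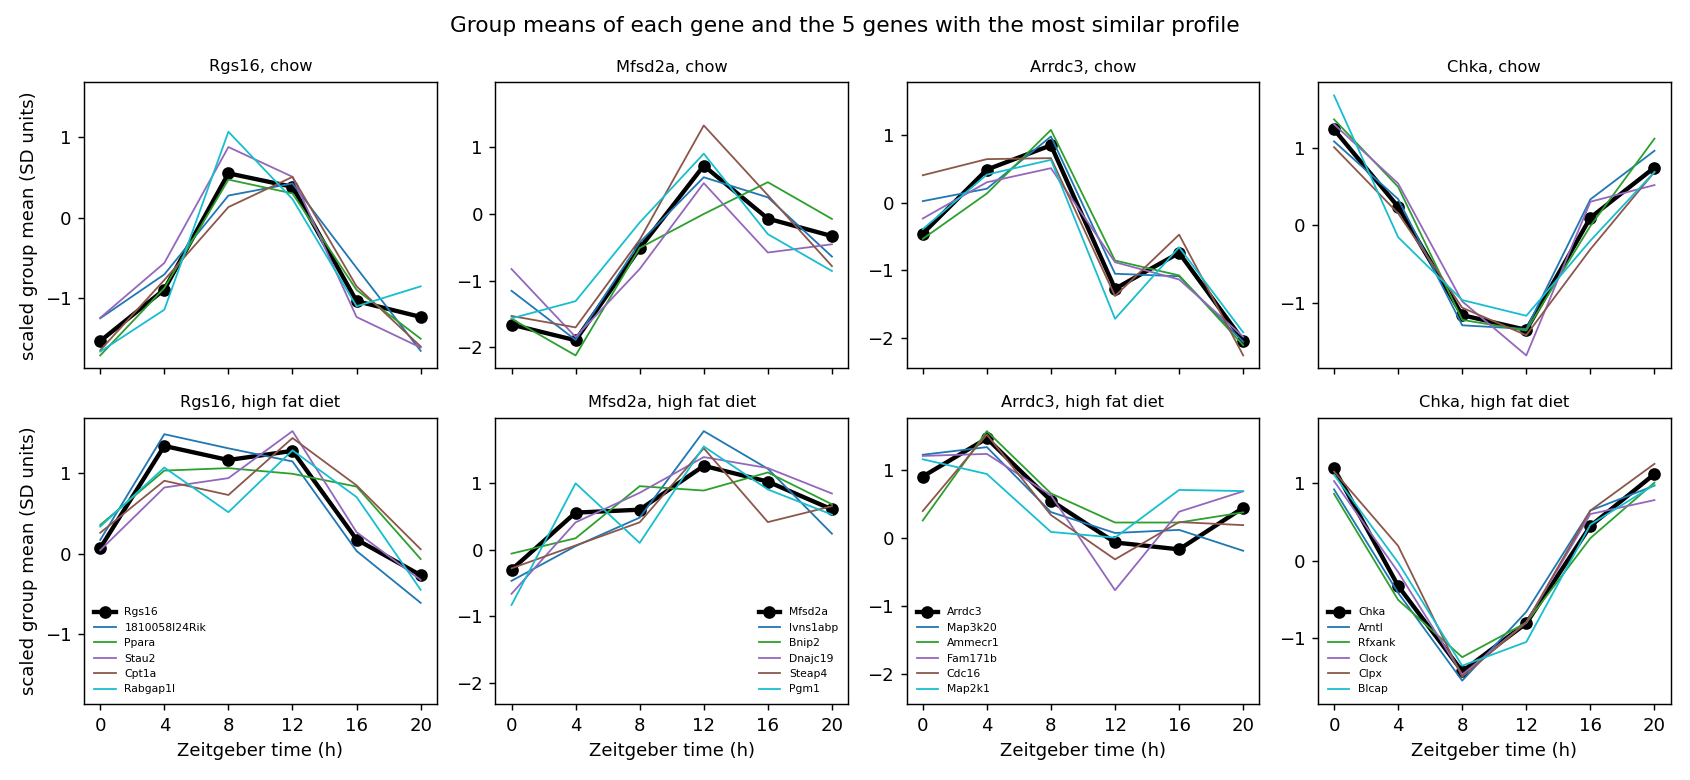
Group means over zeitgeber time in hours, each gene scaled to mean 0 and SD 1 over its 12 groups, for the 4 genes (black) and the 5 genes nearest to each (coloured), chow above and high fat diet below. Chka and its 5 neighbours were chosen for their similarity and run together through a trough at ZT8 to ZT12 on chow and at ZT8 on the high fat diet, with r of 0.969 to 0.985.

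The same within-group test was applied to these 20 gene pairs after the profiles had been seen, with adjustment over the 20. Unlike the pairs of members, these 20 were not tested again without the 4 noisier arrays. Arntl moved with Chka between samples of a group (r = 0.615, permutation p = 0.00164, adjusted p = 0.0082; rho 0.635; r 0.513 without the 2 farthest samples), number 4 of 13955 genes. Rgs16 moved with 1810058I24Rik (r = 0.773, adjusted permutation p = 0.0018), Cpt1a (0.631, adjusted permutation p = 0.007) and Ppara (0.574, adjusted permutation p = 0.0082). In within-group r with Rgs16, 1810058I24Rik was number 5 of 13955 genes, Cpt1a number 168 and Ppara number 425, so many other genes followed Rgs16 as closely. For the remaining 16 pairs, which include all 10 of Mfsd2a and Arrdc3, r lay between -0.155 and 0.512 and did not pass. Clock, with an r of 0.189 to Chka, was one of them.

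Relatives of the 4 genes were examined by family. Among 10 other tested members of the RGS family, 3 were higher on the high fat diet over the day and none lower, where 11.2% of all genes were higher and 9.8% lower. They were Rgs2 by 0.28 (SE 0.09; adjusted p = 0.0252, limma), Rgs1 by 0.24 (SE 0.066; adjusted p = 0.00902, limma) and Rgs19 by 0.19 (SE 0.063; adjusted p = 0.0277, limma). Under quantile normalization or median centring only Rgs1 of these passed. Its mean was 6.03 on chow and 6.27 on the high fat diet, so it cleared the filter level of 6.11 only through its high fat diet samples. Over all settings the list held 0 to 4 genes called higher. The median difference of the 10 was 0.05. Only Rgs3 was called rhythmic, on the high fat diet, with an amplitude of 0.23. Among all genes 20.6% were called rhythmic on chow and 11% on the high fat diet. Rgs5 (0.17, adjusted p = 0.113, limma) and Rgs8 (-0.02), close relatives of Rgs16, did not pass.

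Of 29 genes for G proteins and their receptors and effectors, 2 were higher and 2 lower over the day, where 11.2% of all genes were higher and 9.8% lower. Gna14, a G protein alpha subunit of the Gq class, was higher by 0.78 (SE 0.09; adjusted p = 1.04e-07, limma), and Gnai1, an inhibitory alpha subunit, was lower by 0.54 (SE 0.08; adjusted p = 7.55e-06, limma). Adra1b, the alpha-1B adrenergic receptor of hepatocytes, was lower by 0.15, and Gna12 was higher by 0.13. The call of Gna12 was lost under 10 of 48 other settings, and the count of higher genes was then 1 when any of 8 of the 36 samples was left out, for example chow ZT4 sample 1. The count of lower genes was 1 to 4 over all settings. On chow 12 of the 29 were called rhythmic and on the high fat diet 7, against 20.6% and 11% of all genes.

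In the arrestin family, with its partner ligases and retromer relatives, 2 of 14 genes were higher over the day and none lower, against 11.2% and 9.8% of all genes. Arrdc4, another alpha-arrestin, was higher by 0.29 (SE 0.078; adjusted p = 0.0072, limma). Vps26a was higher by 0.20 (adjusted p = 0.0391, limma), a call that was lost under 21 of 48 other settings, 18 of them with 1 sample left out. With 1 sample left out the list held 1 to 4 genes called higher. Arrdc2 (-0.06, adjusted p = 0.45) and Txnip (0.20, adjusted p = 0.0719), also alpha-arrestins, did not pass limma's test. Arrdc4 and Txnip are both known as glucose-responsive genes. The ligase gene Nedd4l had an amplitude of 0.63 on chow and 0.65 on the high fat diet, with fitted crests at 21.7 h and 19.8 h. Its rhythm difference between the diets did not pass (adjusted p = 0.594, limma F test). Arrdc2 had a chow amplitude of 0.28.

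The choice of Chka used its daily profile, so its amplitude is not compared with those of other phosphatidylcholine synthesis genes. Their median amplitude was 0.0935 on chow and 0.0795 on the high fat diet, against 0.0928 and 0.0773 over all genes. Of 16 tested, 1 was higher over the day (Chpt1, the last enzyme of the CDP-choline route, by 0.16, a call lost under median centring) and 3 lower, against 11.2% and 9.8% of all genes. The 3 were Chdh, which oxidises choline (-0.17), Gnmt, a glycine methyltransferase that uses the methyl donor of the other synthesis route (-0.14), and Etnk1, an ethanolamine kinase (-0.11). Rhythms were called for 4 of the 16 on chow and 5 on the high fat diet, against 20.6% and 11% of all genes. Selenoi, the ethanolamine phosphotransferase, had the widest at 0.30 and 0.32, and its crest at 23.3 h on chow and 21.8 h on the high fat diet lay close to that of Chka. Slc44a1, a choline transporter, followed with 0.22 and 0.20. The closest paralog of Chka, Chkb, was not analysed here.

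Of 20 genes that handle lysophospholipids, the substrates of Mfsd2a, 1 was higher and 2 were lower over the day, against 11.2% and 9.8% of all genes. Gpcpd1, which cleaves glycerophosphocholine to release choline, was lower by 0.47 (SE 0.092; adjusted p = 0.000297, limma), with amplitudes of 1.18 on chow and 0.96 on the high fat diet. Lpcat2, which reacylates lysophosphatidylcholine, was higher by 0.23, and Pnpla6, a lysophospholipase, was lower by 0.11. Pnpla6 lost its call under 7 of 48 other settings and Lpcat2 under 1 of 47. Over all settings the list held 0 to 2 genes called higher and 1 to 3 called lower. Mfsd2b, the nearest paralog of Mfsd2a, showed -0.06 (adjusted p = 0.521, limma).

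ZT4, where the difference of Rgs16 and Mfsd2a was largest, was also examined for genes of feeding and fasting. Among 17 carbohydrate-responsive targets of ChREBP, the glucose-sensing transcription factor of liver, 4 were higher at ZT4 and none lower, where 2.29% of all genes were higher. Klf10, a transcriptional repressor, was higher by 1.05 (SE 0.201; adjusted p = 0.00167, limma), Pklr, the liver pyruvate kinase, by 0.88 (SE 0.173; adjusted p = 0.00225, limma) and Tkfc by 0.62. Averaged over the day 8 of the 17 were higher and 1 lower, against 11.2% and 9.8% of all genes. Their median difference was 0.22 against 0.0167 over all genes.

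Among 22 fasting-responsive genes, 5 were higher at ZT4 and 1 lower, where 2.29% and 1.4% of all genes were. Vnn1, the pantetheinase induced by PPAR-alpha, was higher by 1.91 (SE 0.363; adjusted p = 0.00164, limma) and Plin2, the lipid droplet coat protein, by 0.68 (SE 0.104; adjusted p = 0.000141, limma). The gene that was lower was Irs2, the insulin receptor substrate that rises on fasting, by 0.67 (SE 0.145; adjusted p = 0.00562, limma), a call lost without high fat diet ZT4 sample 3. Over the day 8 of the 22 were higher and 4 lower, against 11.2% and 9.8% of all genes. Their median difference was 0.07.

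Of 17 core clock and PAR bZIP genes, 16 were rhythmic on each diet, with median amplitudes of 0.98 and 0.96. Among all genes 20.6% were rhythmic on chow and 11% on the high fat diet. Over the day 3 of the 17 differed, where 21% of all genes did. They were Bhlhe41 (lower by 0.42), Bhlhe40 (higher by 0.38) and Hlf (higher by 0.26). At ZT4, 6 of the 17 were higher and 1 lower, where 2.29% and 1.4% of all genes were. Ciart, a repressor of BMAL1 and CLOCK, was higher by 1.68 (SE 0.281; adjusted p = 0.000431, limma), Per2 by 0.78 (SE 0.132; adjusted p = 0.000456, limma), and the lower gene was Arntl, whose call was lost without chow ZT4 sample 1 or without high fat diet ZT4 sample 1.

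Markers placed the samples in liver. Alb intensity was 10200 to 13800 on all arrays, and the summed intensity of 8 hepatocyte markers was 66600 to 77700 on chow and 67000 to 76700 on the high fat diet. Markers of Kupffer cells and macrophages moved in the same direction as Rgs16, Mfsd2a and Arrdc3. Of 14 tested, 11 were higher on the high fat diet over the day and none lower, against 11.2% and 9.8% of all genes. At single times the calls came mostly from ZT0, with 9 of the 14 higher, where 470 of 13956 genes were. There were 2 at ZT12 and none at ZT4, ZT8, ZT16 or ZT20. The sum of the 15 measured was 2730 to 6800 on chow and 4060 to 9260 on the high fat diet. At ZT0 that sum did not overlap, with 4410 to 4690 on chow and 7700 to 9260 on the high fat diet. It was also apart at ZT20, with 3910 to 4010 and 4060 to 5020. At ZT4, where the gap of Rgs16 and Mfsd2a was widest, it overlapped, with 3890 to 6800 and 5130 to 7350. The gap at ZT0 was not particular to macrophages. Sums of sinusoidal endothelial markers (5080 to 5710 on chow, 6390 to 6600 on the high fat diet) were also apart then. So were those of T, NK and B cell markers (748 to 776 and 881 to 956), while the other lists overlapped. The part of Kupffer cells and macrophages in the differences of the 3 genes was not tested.

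Of the other cell type lists, markers of pericentral hepatocytes were higher in 7 of 11 and lower in 1. Those of periportal hepatocytes were lower in 3 of 7 and higher in none. For comparison with each list here, 11.2% of all genes were higher over the day and 9.8% lower. At ZT4 the periportal sum was 24100 to 25300 on chow and 20000 to 21000 on the high fat diet. Stellate cell markers were higher in 3 of 10, T, NK and B cell markers in 2 of 6, bile duct markers in 1 of 3 and adipocyte markers in 1 of 3, with none lower. Sinusoidal endothelial markers were lower in 1 of 10, hepatocyte markers lower in 2 of 8, and neither of 2 red blood cell markers changed by limma. The defining adipocyte gene Adipoq stayed at 18.9 to 42.5 on all arrays. Their part in the levels of the 4 genes was not tested either.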

How the data were processed

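Liver RNA from 36 samples was hybridised to Affymetrix whole-transcript arrays, 1 array per sample. The deposited values are linear probe set intensities that the authors made with Affymetrix Expression Console 1.1.1 and PLIER 2.0, per the submitters' processing notes. How background was removed, and how arrays were scaled to each other, is not stated there. Of 35556 probe sets, 21789 name 1 gene in the platform annotation, 1621 several and 12146 are not listed. The brightest single-gene probe set stood for each of 19938 genes, and each of the 4 genes described had exactly 1.

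Intensities were taken as log2(intensity + 16), and the 13956 genes with a mean above the 30th percentile (6.11) were tested. All fits used all 36 samples with limma 3.58.1 in R 4.3.3 (lmFit and eBayes, 24 residual degrees of freedom) and Benjamini-Hochberg adjustment over all tested genes at 0.05. Diet differences came from 1 mean per diet and time, and rhythms from a 24 h cosine and sine per diet. All adjusted p-values of single genes are limma's. Data were also simulated on these genes, with 50 genes per effect and noise independent between arrays. Recovery was 100% for a day-averaged difference of 0.5 and for a ZT4 difference of 1.5. It was also 100% for a chow rhythm of amplitude 1 and a rhythm of amplitude 1 on chow only. Smaller effects were not simulated, so recovery of the smaller differences and rhythms reported here is not known.

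The 4 genes, the pathway and marker lists and the motifs were chosen with earlier results of these data known, and so support nothing by themselves. Genes named from a pathway list are up to 4 called genes with the largest day-averaged difference and up to 3 with the largest at ZT4. For the RGS, arrestin, phosphatidylcholine and lysophospholipid lists, up to 3 rhythmic genes with the largest amplitude on each diet were also eligible. The 5 genes nearest each member in the group means and the paralogs were named whatever their values. P-values measure the spread between samples that the labels do not tie to animals, and the number of arrays limits the precision. Samples with the same number were not treated as paired. Of 198 same-numbered pairs, 75 had correlated deviations above 0.1, and 17 of 36 samples were closest to their own number. These counts were not set against a chance level, and whether samples with the same number shared a batch was not tested. No 2 arrays held identical values. Alternatives were other normalizations, offsets, filters, probe set rules, array weights, a robust variance prior, the replicate number as a block, and leaving out each sample. Gene names were updated through RefSeq for 99.6% of symbols.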

Additional observations from a re-analysis of the deposited data

Results flagged for a closer look

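Chka was lower on the high fat diet in all samples of ZT4, by 0.52 on the log2 scale (difference -0.52), and higher in all samples of ZT12 (0.51) and ZT16 (0.33). The change of sign between these times was not tested, since the gene was chosen for its daily course. Ciart was higher at ZT4 (1.68) and lower in all samples at ZT16 (-0.66). Arntl, picked as the gene nearest to Chka in its profile, was lower at ZT0 (-0.19) and ZT4 (-0.89) and higher at ZT12 (0.81). Per2 was higher at ZT4 (0.78) and ZT8 (0.65) and lower at ZT16 (-0.29) and ZT20 (-0.47). For Ciart and Arntl the change of sign itself was not tested at single times. A rhythm difference between the diets did not pass the limma F test for Ciart (adjusted p = 0.109) or Arntl (adjusted p = 0.234). Per2 passed the limma F test of a rhythm difference between the diets (adjusted p = 0.0137), with a fitted crest at 14.6 h on chow and 11.8 h on the high fat diet. Groups of 3 samples are too small for the outlier test.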

How the results depend on the processing

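Under all 48 alternatives the day-averaged differences and amplitudes of the 4 genes (12 values) moved by less than the spread between replicates. None changed sign. That spread is the residual SD of single samples, 0.918 for Rgs16, a looser limit than the SE of the fit. Within it the day-averaged difference of Rgs16 ran from 1.58 to 2.63 and its chow amplitude from 1.24 to 2.35. The 8 fitted crest times stayed within that SD divided by the amplitude and turned into hours, also a loose limit. Single-time values moved more: the Rgs16 difference at ZT0 was 3.72 with an offset of 1 and 1.74 with an offset of 64, that at ZT4 was 2.95 with an offset of 64, and the Chka difference at ZT8 was -0.56 with array weights. Dim chow values of Rgs16 lie near the offset, which limits how well its ratios are known. Counts of called genes moved by over 1.5 times as follows. With array weights they were 1082 at ZT4 (515 in the main analysis), 1716 at ZT8 (108), 1205 at ZT12 (759), 1336 at ZT16 (310), 821 at ZT20 (285), 2802 for rhythm on the high fat diet (1540) and 185 for a rhythm difference between the diets (4). Median centring gave 1806 at ZT0 (993) and 191 at ZT16, and quantile normalization gave 11 rhythm differences. Chosen after seeing the data, centring on the tested genes gave 8 rhythm differences, and leaving out the 4 noisier arrays gave 165 at ZT8, 142 at ZT20, 1 rhythm difference and a within-group r of Rgs16 and Arrdc3 of 0.536 (adjusted permutation p = 0.0501). Leaving out 1 sample at a time gave 270 to 1143 calls at ZT0, 258 to 611 at ZT4, 54 to 129 at ZT8, 291 to 855 at ZT12, 96 to 363 at ZT16, 121 to 338 at ZT20 and 4 to 11 rhythm differences. The low values came from leaving out a sample of that time, such as chow ZT0 sample 3 (270), high fat diet ZT4 sample 1 (258), high fat diet ZT8 sample 1 (54), chow ZT12 sample 2 (291), high fat diet ZT16 sample 2 (96) and chow ZT20 sample 3 (121), where the arm then held 2 samples. Of the genes called over the day, 53.5% were higher on the high fat diet in the main analysis, 45.9% with quantile normalization, 30% with median centring on all probe sets and 48.7% with centring on the tested genes. At ZT0 these shares were 47.3%, 29.1%, 10.8% and 46.8%. With the replicate number as a block, 2952 genes were called over the day, 1004 at ZT0 and 519 at ZT4, and no count moved by over 1.5 times. Where a value moved, the cause was not tested.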

Other observations

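Some genes followed the 4 members more closely between samples of a group than across the groups, and these were chosen after their values were seen, so r is given without a test. For Rgs16 the closest were Dlat, a subunit of the pyruvate dehydrogenase complex (within-group r 0.793 over 36 samples, 0.819 without the 2 samples farthest in Rgs16), the ephrin receptor Epha7 (0.793), Itm2a (0.792) and Dusp6, the phosphatase that acts on ERK (0.789). The group means of Dlat and Rgs16 had an r of 0.584. For Mfsd2a they were Slc25a10, the mitochondrial dicarboxylate carrier (0.858, and 0.694 without the 2 farthest samples, both from high fat diet ZT0), Lgals1 (0.839, 0.637), Fgfrl1 (0.837, 0.675) and Pparg, the adipogenic nuclear receptor (0.826, 0.629). Arrdc3 was closest to Depp1, a fasting-induced FOXO target (0.742, 0.648), and Chka to Acsl4, an acyl-CoA synthetase that prefers arachidonate (0.671, 0.615). Acsl4 had almost no common course with Chka across the 12 group means (r 0.037).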
